A study of Mus musculus with 4 samples.

Results

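Transverse aortic constriction (TAC) in STIM1-deficient mice was examined here through the left ventricle after TAC set against the left ventricle after a sham operation, both from animals labelled STIM1KO. These are 2 of the 4 arrays of the series, chosen by their titles, and each group has 1 array. The first group is STIM1KO sham and the second STIM1KO TAC, and the other 2 arrays, WT sham and WT TAC from wild-type mice, serve as the background. All animals were male C57BL/6 mice operated at 10 weeks, and the ventricles were taken 4 weeks later, at 14 weeks. In TAC the aortic arch was tied around a wire of 0.3 mm that was then taken out, while sham animals had the same surgery without the tie.

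The ratio of heart weight to body weight, which the labels give as an average without unit, spread or number of mice, was 4.5 for STIM1KO sham and 4.9 for STIM1KO TAC, beside 4.1 for WT sham and 6.7 for WT TAC. The sources used here do not say whether the RNA of an array came from 1 mouse or a pool, how STIM1 was made deficient, or in which cells. With 1 array per group there is no replicate, no test and no error between animals. Every difference below compares arrays, not conditions, and differences between the genotypes were not tested.

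STIM1 is a protein of the endoplasmic and sarcoplasmic reticulum that senses falling calcium stores and opens Orai channels in the plasma membrane, a route called store-operated calcium entry. In the heart, calcium entering by this and other routes can activate calcineurin and CaMKII, which drive growth of cardiomyocytes under load. Pressure overload is known for raising fetal genes such as natriuretic peptides and beta-myosin heavy chain, for changing the matrix between the cells and for shifting energy use.

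Of 23473 probes, 21115 had a value on the STIM1KO sham array and 21782 on the STIM1KO TAC array. A symbol and a value on all 4 arrays were held by 14039 genes, and 7020 of them were described, those whose log2 intensity averaged 4.87 (an intensity of 29.3) or more, the median over genes. Differences are log2 of quantile-normalized intensity, STIM1KO TAC minus STIM1KO sham, with intensities in arbitrary units. Stim1 itself lay below this level on average. In the order WT sham, WT TAC, then STIM1KO sham and STIM1KO TAC, the order of every run of 4 intensities that follows, it was at 41.6, 33.9, 20.7 and 13.8, so both STIM1KO arrays were below both WT arrays. The sources used here do not say whether the Stim1 probe lies inside the part that was altered.

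Between the STIM1KO arrays most genes differed little, and the larger differences leaned to the higher side. The median over the 7020 genes was -0.004, the middle of the distribution ran from -0.29 at the 25th percentile to 0.26 at the 75th, and 58.0% of genes lay within 1.25-fold. At 2-fold or more, 88 genes (1.25%) were higher and 42 (0.598%) lower on STIM1KO TAC. With each array centred on its median these counts were 70 and 56, and with the values as deposited 99 and 33. At 1.5-fold, 513 genes (7.31%) were higher and 499 (7.11%) lower, and 49.4% of all genes lay above 0. These shares are the background for every list count at 1.5-fold or above 0 that follows. Median centring put the median of all genes at -0.07 and the deposited values put it at 0.03.

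The spread was wider than in wild type. The SD of the differences across genes was 0.42, against 0.25 for WT TAC minus WT sham, where 8 genes were higher and 14 lower at 2-fold. It was widest for dim probes, at 0.48 in the dimmest of 5 equal bins of genes by mean intensity (29.3 to 47.1), and 0.39 in the brightest (above 351.8). The brightest bin still held 19 genes higher and 5 lower at 2-fold, and the dimmest 20 and 12. Each of the 130 genes at 2-fold rested on 1 probe.

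**Figure D1:**
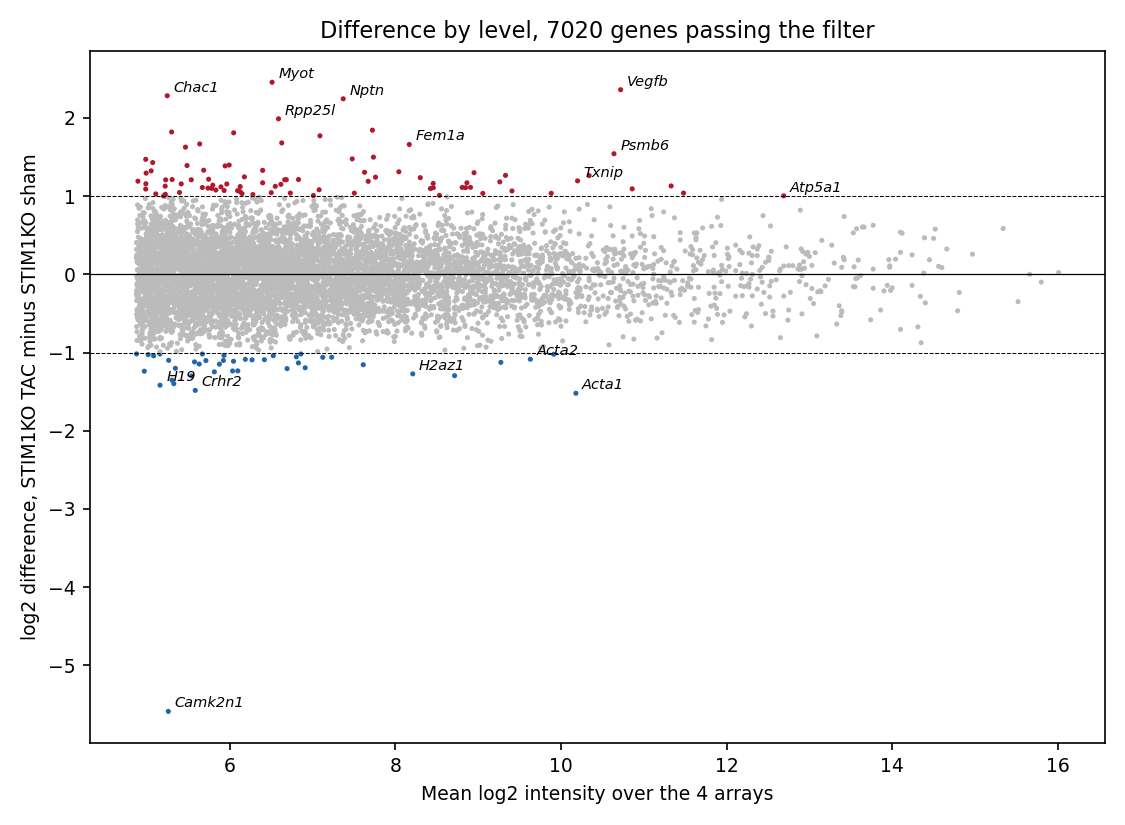
Difference between the STIM1KO arrays (vertical axis, log2) against the mean log2 intensity over the 4 arrays (horizontal axis), with 1 point per gene for the 7020 genes described and dashed lines at 2-fold. Red points are the 88 genes at 2-fold or more higher on STIM1KO TAC and blue points the 42 lower. Red points extend to brighter genes than blue ones, and Camk2n1 stands alone at -5.59.

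The tissue label was checked against markers of the cell types a ventricle holds. Of 18 cardiomyocyte markers with a value on all 4 arrays, 17 were above the filter level, with a median intensity of 15830, 13690, 15710 and 13040 (WT sham, WT TAC, then STIM1KO sham and TAC). Their median difference was 0.02 (9 above 0, 8 below), or 0.17 with the values as deposited. Ryr2, the calcium release channel of cardiomyocytes, was the exception to the filter, with a dim probe at 4.31 and 2.77. Defining markers of some other cells and layers were dim. Myl7, the light chain of atrial myosin, was at 8.10 and 8.95 on the sham and TAC arrays of STIM1KO, the T cell gene Cd3e at 1.88 and 1.48, and Msln, a mesothelial gene, at 3.40 and 4.99. Of the mesothelial markers 0 passed the filter, of the lymphocyte markers 1 and of the atrial and conduction markers 3. Those that passed were not all dim, since Bmp10, an atrial growth factor, was at 85.4, 95.3, 112 and 177, a difference of 0.67, and Ighm, the immunoglobulin heavy chain of B cells, at 82.2, 115, 130 and 204, with 0.65. Both were highest on STIM1KO TAC, while Tbx5, a transcription factor also listed as atrial, differed by -0.27. Neural and Schwann cell markers had 6 of 9 above the filter level, with a median of -0.08.

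Among the other cell types, macrophage and monocyte markers leaned higher on STIM1KO TAC and those of pericytes and smooth muscle lower. Above 0 were 11 of the 17 macrophage and monocyte markers that passed the filter, and 6 were below, for a median of 0.42 against -0.004 for all genes and -0.05 for the same genes in WT. At 1.5-fold, 4 of them were higher and 0 lower, beside 7.31% and 7.11% of all genes. Ctss, which encodes the lysosomal protease cathepsin S, had intensities of 60.2 (WT sham), 58.4 (WT TAC), 52.0 (STIM1KO sham) and 89.9 (STIM1KO TAC), a difference of 0.79. The STIM1KO TAC array was thus the high one, with the other 3 close together. Csf1r, the receptor of the macrophage growth factor, lay below the filter level at 7.93, 26.2, 11.7 and 73.8 in the same order, while Adgre1, another defining marker, was at 11.5, 12.6, 11.0 and 8.24. The median marker stood at -0.22 from the mean of the WT arrays on STIM1KO sham and at 0.13 on STIM1KO TAC. Complement genes, of which 3 of 12 are C1q chains also in the macrophage list, had a median of 0.30 (8 above 0, 4 below), or 0.15 with the filter at the 75th percentile. Red cell markers had 3 genes passing the filter. Alas2, of heme synthesis, was at 73.2, 69.2, 68.3 and 118, with 0.79, and Epb42, of the red cell membrane skeleton, differed by 0.55. Bpgm, the remaining gene, was at 97.2, 83.4, 87.8 and 82.8, with -0.08. Alas2 was high on STIM1KO TAC alone. What blood or immune cells contributed to other genes was not tested.

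Pericyte and smooth muscle markers had 4 of 13 above 0 and 9 below, a median of -0.28, or -0.135 with the filter at the 75th percentile, and a WT median of 0.05. Acta2, smooth muscle alpha-actin, was the lowest, at intensities of 1002, 699, 1094 and 515 on WT sham, WT TAC, then STIM1KO sham and STIM1KO TAC, a difference of -1.09. The TAC array was the lower within each genotype. Rgs5, a regulator of G protein signalling marking pericytes, was at 310, 329, 236 and 140, with -0.75, and the WT arrays lay close together above both STIM1KO arrays. Fibroblast markers had 7 of 20 above 0 and 13 below, with a median of -0.05 that was -0.02 with the values as deposited. Endothelial markers had 8 of 19 above 0, a median of -0.23 and a WT median of -0.10. At 1.5-fold 4 of them were higher and 1 lower, and this list has no stated direction. Fewer cells of a type and less RNA per cell cannot be told apart in these bulk samples.

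**Figure D2:**
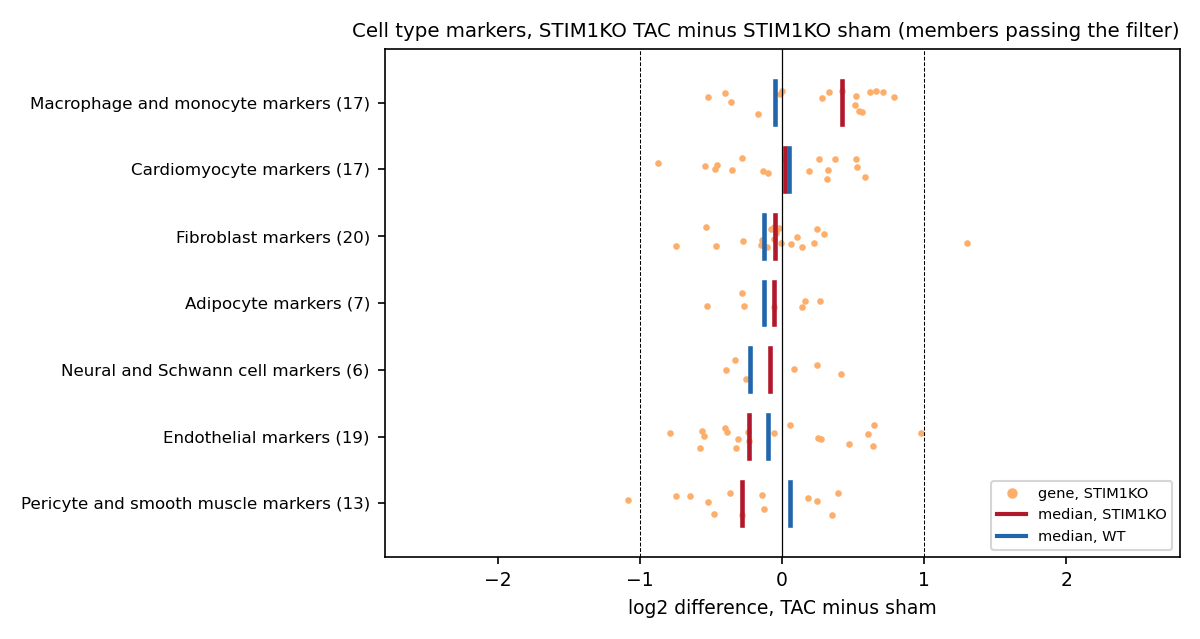
Log2 differences between TAC and sham (horizontal axis) for cell type markers passing the filter, with 1 orange point per gene in STIM1KO, a red bar at the STIM1KO median and a blue bar at the WT median of the same genes; the number of genes stands behind each name and dashed lines mark 2-fold. Among these 7 lists, those with at least 4 genes, macrophage markers have the highest STIM1KO median, 0.42, and pericyte and smooth muscle markers the lowest, -0.28, while cardiomyocyte markers lie at 0.02.

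The higher genes differed from the lower ones in where the sham array stood. Of the 88 higher genes, 68 (77.3%) had their STIM1KO sham value below both WT arrays, 78 (88.6%) had their STIM1KO TAC value above both, and 58 (65.9%) did both. Over all 7020 genes these shares were 33.3%, 43.7% and 10.1%. Choosing genes by this very difference favours such places, so the shares are a description. Of the 42 lower genes, 41 (97.6%) had STIM1KO TAC below both WT arrays, but 11 (26.2%) had STIM1KO sham above both, against 40.5% and 35.1% of all genes. Measured from the mean of the WT arrays, the higher genes had a median of -0.40 on the sham array and 0.82 on the TAC array of STIM1KO. The lower genes had -0.05 and -1.16. The TAC array lay farther from wild type than the sham array in 62 of the 88 higher genes, and the sham array farther in 26. Among the 42 lower genes the TAC array was the farther in 40. In WT the difference had the same sign in 55 of the 88 and in 33 of the 42. Neither these counts nor those of the farther array were set beside all genes, so they only describe the genes chosen.

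**Figure D3:**
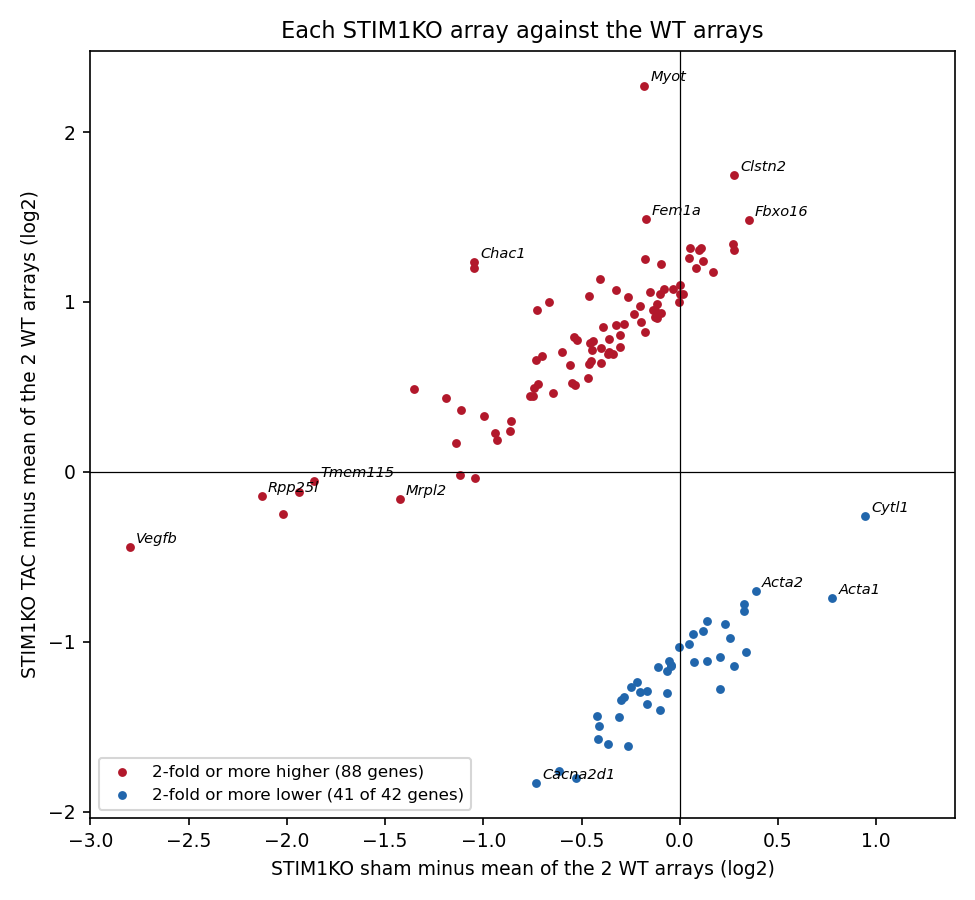
Distance of each STIM1KO array from the mean of the WT arrays (log2) for genes at 2-fold, with STIM1KO sham on the horizontal and STIM1KO TAC on the vertical axis; red points are the 88 higher genes and blue points 41 of the 42 lower ones, Camk2n1 being off the scale. Red points spread to the left, where Vegfb and Rpp25l have low sham values and TAC values close to wild type, while blue points lie low on the vertical axis and near 0 on the horizontal one.

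For some of the largest differences it was the sham array that departed. Vegfb encodes a growth factor of the VEGF family that binds the receptor Flt1. Its intensities were 3247 (WT sham), 2676 (WT TAC), 424 (STIM1KO sham) and 2172 (STIM1KO TAC), a difference of 2.36 or 5.13-fold. The STIM1KO sham array was far below the other 3, and STIM1KO TAC was the next lowest. Rpp25l, a relative of a ribonuclease P subunit, was at 134, 152, 32.6 and 129 in the same order, with 1.99. Rhoc, a small GTPase that acts on the actin cytoskeleton, was at 187, 218, 49.75 and 170, with 1.77. Arhgef3, an exchange factor that activates RhoA, was at 58.0, 54.4, 14.7 and 51.75, with 1.82. In all 4 genes, STIM1KO TAC lay below both WT arrays and STIM1KO sham lower still. Of the 88 higher genes, 4 had this arrangement.

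In others it was the TAC array. Myot encodes myotilin, which crosslinks actin at the Z-disc. It had intensities of 43.75 (WT sham), 92.1 (WT TAC), 55.9 (STIM1KO sham) and 307 (STIM1KO TAC), a difference of 2.46 or 5.48-fold, the largest of the higher genes, and 1.07 in WT. Both TAC arrays were above both sham arrays, and STIM1KO TAC was the highest. Fem1a, a substrate receptor of cullin ubiquitin ligases, was at 185, 284, 203 and 642, with 1.66. Art3, of the family of ADP-ribosyltransferases on the cell surface, was at 577.5, 1805, 1060 and 2540, with 1.26 and, in WT, 1.64. For Art3, too, each TAC array was above both sham arrays.

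In a further group the sham array was low and the TAC array high. Nptn, the adhesion protein neuroplastin that also binds plasma membrane calcium pumps, was at 146, 178, 78.1 and 370 on WT sham, WT TAC, then STIM1KO sham and STIM1KO TAC, with 2.24. Psmb6, a catalytic subunit of the proteasome, was at 1309, 1501, 1058 and 3080, with 1.54. Col1a2, a chain of type I collagen, was at 198, 190, 128 and 317, with 1.30. Their WT arrays lay close to each other, between the STIM1KO ones. Nudt1, which clears oxidized nucleotides, St8sia4, which builds polysialic acid, and Itpk1, an inositol phosphate kinase, had the same order, with 1.62, 1.67 and 1.50.

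**Figure D4:**
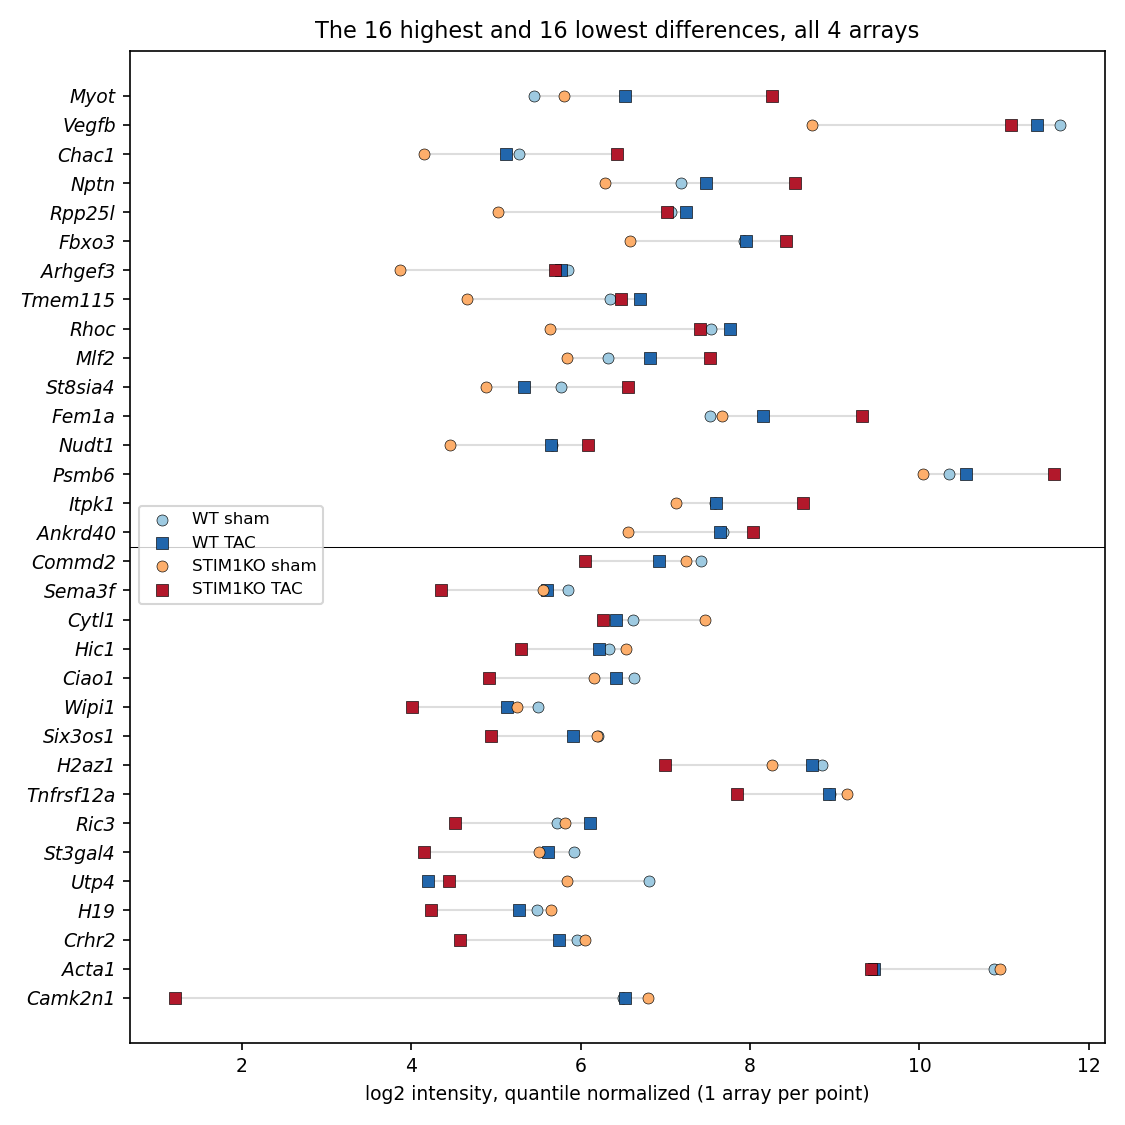
Quantile-normalized log2 intensity (horizontal axis) on each of the 4 arrays for the 16 genes with the highest and the 16 with the lowest difference, clone names left out, ordered by difference from Myot down to Camk2n1; circles are sham, squares TAC, blue WT and orange or red STIM1KO, 1 array per point. Among the upper genes the orange circle is mostly the lowest point, and among the lower genes the red square is the lowest in all but Utp4.

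In 40 of the 42 lower genes the STIM1KO TAC array lay farther from the mean of the WT arrays than STIM1KO sham did. Choosing genes by this difference favours that place. Crhr2, a receptor for urocortins that acts on heart and vessels, had intensities of 62.1 (WT sham), 53.7 (WT TAC), 66.5 (STIM1KO sham) and 23.8 (STIM1KO TAC), a difference of -1.48. Tnfrsf12a, the receptor of the cytokine TWEAK, was at 491, 490, 565 and 230, with -1.30. H2az1, which encodes a variant of histone H2A, was at 462, 425, 307.5 and 127, with -1.27. In each of these the STIM1KO TAC array alone was low, although STIM1KO sham was also below both WT arrays for H2az1. Wipi1, which binds lipids on forming autophagosomes, differed by -1.24, Ciao1, of the cytosolic iron-sulfur assembly machinery, by -1.24, and Hic1, a transcriptional repressor, by -1.23 or 2.35-fold. Other lower genes had other arrangements. Utp4, a factor of ribosome assembly, was at 112, 18.3, 57.4 and 21.8, and Ndrg4, of the NDRG family, at 930, 519, 815 and 373.5, with both TAC arrays below both sham arrays. Cytl1, a secreted cytokine-like protein, was at 98.3, 85.8, 177 and 76.6, so STIM1KO sham was the array apart, and Acta1, described below, was low on both TAC arrays. Camk2n1, which inhibits CaMKII, was at 90.5, 92.4, 111 and 2.31. The last value lies under 5.38, the 25th percentile of the STIM1KO TAC array, and how far it lies below the others is not well measured.

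Genes of hypertrophy and the fetal program were lower as a group on STIM1KO TAC. Above 0 were 4 of the 13 that passed the filter and 9 were below, and the median was -0.30 against 0.07 in WT. At 1.5-fold, 4 were lower and 0 higher, beside 7.11% and 7.31% of all genes. The median was -0.10 with the filter at the 75th percentile. Myh7, the slow beta-myosin heavy chain, had intensities of 50.55 (WT sham), 76.3 (WT TAC), 70.2 (STIM1KO sham) and 46.5 (STIM1KO TAC), a difference of -0.59 against 0.59 in WT. The STIM1KO TAC array was the lowest of the 4 and WT TAC the highest. Nppb, which encodes B-type natriuretic peptide, was at 2535, 3778, 3045 and 2919, so that WT TAC was the high array, and the STIM1KO arrays differed by -0.06. Nppa, for A-type natriuretic peptide, was at 1422, 1684, 1249 and 1136, with -0.14. Ankrd1, a stress protein of the Z-disc and nucleus, was at 8246, 6415, 7483 and 4267, with -0.81, and -0.36 in WT. Pdlim3, an actinin-binding protein, differed by -0.91, and by -0.37 in WT. Rcan1, a calcineurin target and regulator, differed by -0.40 and Csrp3, the Z-disc protein MLP, by 0.53. In WT the differences of Rcan1 and Csrp3 were 0.07 and 0.08.

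Acta1, skeletal muscle alpha-actin and a fetal gene of the heart, was low after TAC in both genotypes. Its intensities were 1881 (WT sham), 705.7 (WT TAC), 1973 (STIM1KO sham) and 688 (STIM1KO TAC), a difference of -1.52 in STIM1KO and -1.42 in WT. The sham arrays lay together and the TAC arrays lay together. Its promoter is shown because Acta1 had the largest difference of the contractile genes in the downward direction and is a known target of serum response factor, which binds the CArG box. The 250 bases before the start of Acta1 (GRCm38.p6, from RefSeq, chr8:123894776-123895025, minus strand) hold that motif, in capitals, from base 73 to base 64 before the start. Positions count from the annotated start, not a measured one, and the letters TATAAA begin at -7 from it.
Acta1: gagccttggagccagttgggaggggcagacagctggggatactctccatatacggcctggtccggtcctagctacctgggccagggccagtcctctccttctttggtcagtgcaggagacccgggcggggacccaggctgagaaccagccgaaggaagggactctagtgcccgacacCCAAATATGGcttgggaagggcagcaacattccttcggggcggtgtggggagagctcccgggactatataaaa
Searched on both strands, the CArG box is in 1.47% of all 32851 promoter entries of this length. Of the genes passing the filter 1.59% hold it, and of the 72 higher and 32 lower genes with a promoter entry, 2 (Nr2f6 and Rnf128) and 1 (Acta1). A match describes the letters of the window and no binding.

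The remaining contractile genes went both ways. Thin filament genes had 6 of 16 above 0 and 10 below, with a median of -0.10, and they include Acta1 and Acta2. Tnnt2, cardiac troponin T, was on the other side at 33600, 38720, 38720 and 58090 on WT sham, WT TAC, then STIM1KO sham and STIM1KO TAC, with 0.59. Tmod4, a capping protein of thin filaments, differed by -0.59. Z-disc and costamere genes had 11 of 15 above 0 and 4 below, with a median of 0.14 against -0.02 in WT. At 1.5-fold, 2 were higher and 2 lower, beside 7.31% and 7.11% of all genes. The lower ones were Pdlim3 (-0.91) and Ankrd1 (-0.81), which are also in the list of hypertrophy and fetal genes. Beside Myot, Svil, which links actin to the membrane, was at 158, 384, 282 and 465.5, with 0.72, and lowest on WT sham. Thick filament and M-band genes had 5 of 11 above 0 and a median of -0.10, which was -0.33 with median centring and 0.08 with the filter at the 75th percentile. Myom2, an M-band protein that ties thick filaments together, was at 1033, 1521, 1056 and 520, with -1.02 against 0.56 in WT, and the low array was STIM1KO TAC. Mybpc3, myosin-binding protein C, differed by -0.55 and by -0.57 in WT, Myh6, the adult myosin heavy chain, by -0.46, and Mylk3, the kinase of cardiac myosin light chain, by 0.69. The sources used here do not say which of the closely similar actin and myosin genes a probe tells apart.

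Genes of the sarcoplasmic reticulum and calcium cycling, and those of sarcolemmal channels, leaned lower. In the list of the reticulum and calcium cycling, 5 of 13 were above 0 and 8 below, and the median was -0.28 against 0.03 in WT. At 1.5-fold, 2 were lower and 0 higher, beside 7.11% and 7.31% of all genes. Srl, which encodes the lumenal protein sarcalumenin, had intensities of 179 (WT sham), 192 (WT TAC), 193 (STIM1KO sham) and 117 (STIM1KO TAC), a difference of -0.72. The other 3 arrays lay together and STIM1KO TAC was low. Cacna2d1, a subunit of voltage-gated calcium channels, was at 93.2, 38.4, 36.05 and 16.8, with -1.10 or, with the values as deposited, -0.99. Its difference in WT was -1.28. Here the WT sham array was high. Atp2a2, the calcium pump SERCA2, was at 22340, 19440, 22700 and 18660, with -0.28, and both TAC arrays were below both sham arrays. Trdn, triadin of the release complex, differed by -0.49, and by -0.36 in WT. Calr, the calcium store protein calreticulin, differed by -0.46, and by 0.17 in WT. Ion channels and pumps of the sarcolemma had 3 of 9 above 0 and a median of -0.24. Kcne1, a subunit of a repolarizing potassium channel, was the lowest at 74.4, 88.6, 68.4 and 37.1, with -0.88, low on STIM1KO TAC alone.

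Store-operated entry and the enzymes that calcium activates had members on both sides. Of 8 store-operated and TRPC genes at the filter level, 4 lay above 0 and 4 below, and their median was -0.05, or 0.01 with the values as deposited and -0.195 without the filter. Orai1, the channel pore, was at 72.8, 90.7, 83.55 and 90.0 on WT sham, WT TAC, then STIM1KO sham and STIM1KO TAC, and Orai3 at 64.1, 79.2, 70.35 and 62.5. Saraf, which turns store-operated entry off, was at 2172, 2295, 2133 and 2245. For these 3 genes the STIM1KO arrays differed by 0.11, -0.17 and 0.07. Cracr2a, a regulator of Orai channels, was at 27.6, 46.8, 44.7 and 70.4, with 0.66 beside 0.76 in WT, and STIM1KO TAC was the highest. Stim2, the homologue of Stim1, lay below the filter level at 28.01, 25.71, 25.34 and 19.04. Calcineurin, NFAT and MEF2 genes had 5 of 11 above 0 and a median of -0.05, and none at 1.5-fold either way. That median was -0.26 without the filter and -0.37 with it at the 75th percentile. The CaMKII and calmodulin list had 4 of 8 above 0 and 4 below, and a median of -0.11. That median was 0.06 with the filter at the 75th percentile, 0.02 with it on the STIM1KO arrays and -0.235 with the mean over probes. Beside Camk2n1, the kinase gene Camk2a was at 43.3, 28.3, 57.2 and 29.7, with -0.945 and -0.61 in WT. Its TAC array was the lower in each genotype. Camkk2, of the same list, differed by 0.35.

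Genes that join cardiomyocytes and that receive hormones had no stated direction. Intercalated disc genes had 10 of 17 above 0 and a median of 0.26, or 0.04 without the filter, against -0.05 in WT. Pkp2, the desmosomal plakophilin, was at 365, 323, 314 and 495 on WT sham, WT TAC, then STIM1KO sham and STIM1KO TAC, with 0.66, and Nexn, the actin-binding nexilin, differed by 0.51. Both were highest on STIM1KO TAC. Dsc2 and Jup, of the same desmosomes, differed by -0.45 and -0.42. Neurohormonal receptors and Gq signalling genes had 10 of 20 above 0 and a median of -0.004, or 0.52 with the filter at the 75th percentile. Rgs2, which damps Gq signals, was at 424, 332, 239 and 448, with 0.91 and a low STIM1KO sham array. Gnb3, a G protein beta subunit, was at 48.6, 66.75, 109 and 62.8, with -0.80 and a high STIM1KO sham array.

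**Figure D5:**
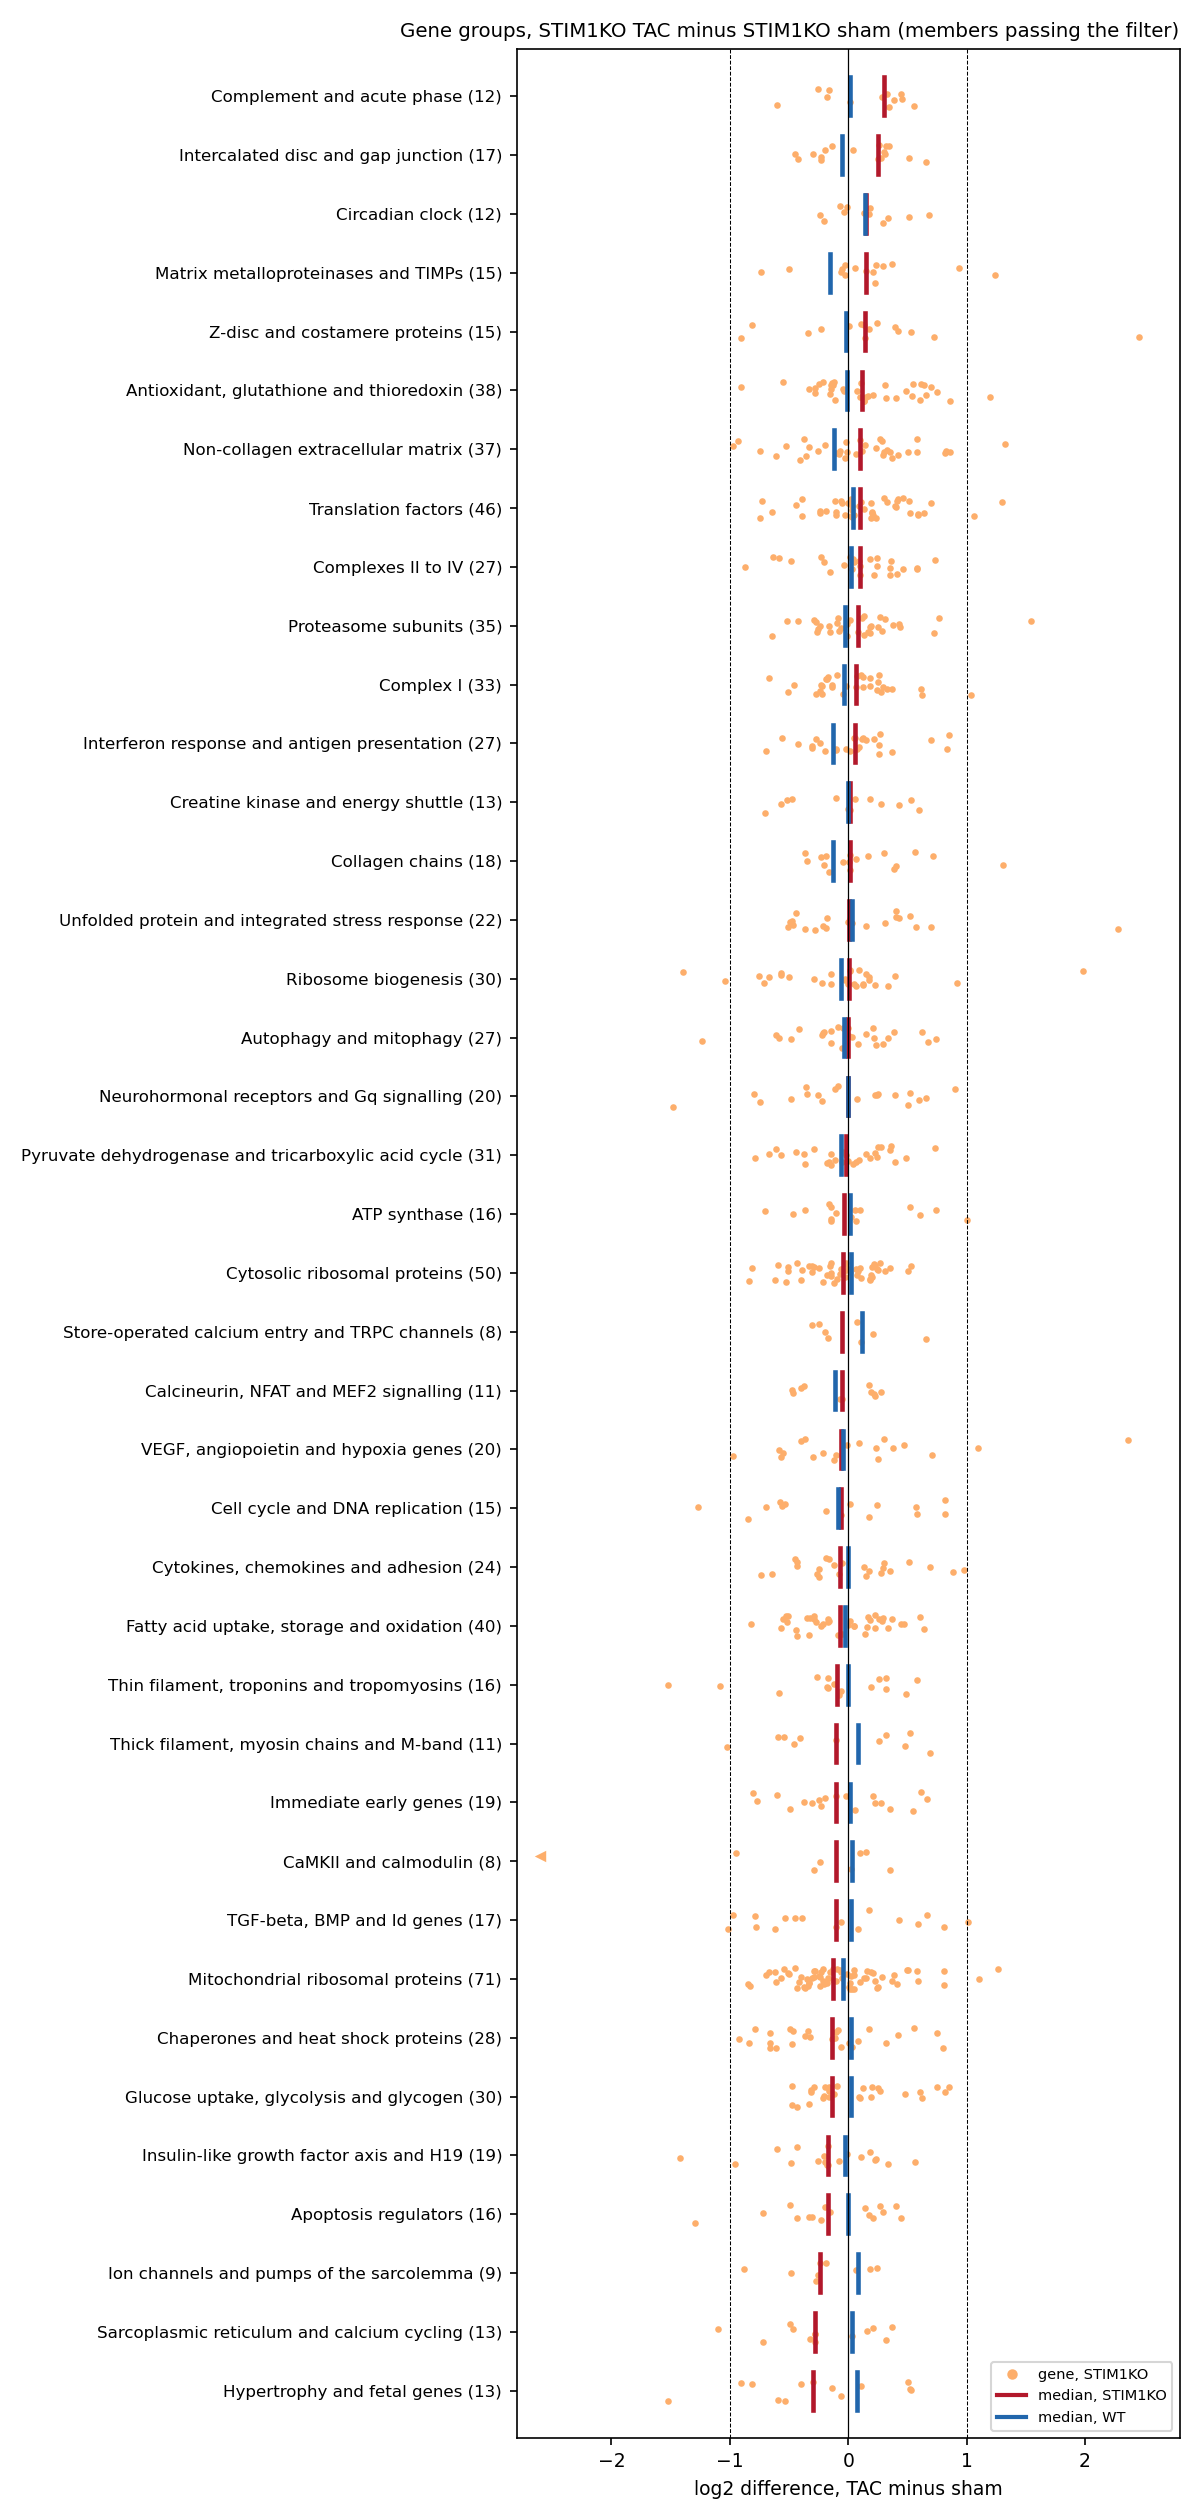
Log2 differences between TAC and sham (horizontal axis) for the gene groups other than cell type markers, ordered by STIM1KO median, with 1 orange point per gene in STIM1KO, a red bar at the STIM1KO median and a blue bar at the WT median; the number of genes passing the filter stands behind each name and dashed lines mark 2-fold. The medians run from 0.30 for complement to -0.30 for hypertrophy and fetal genes, while single genes spread past 2-fold on both sides, and the triangle at the left edge is Camk2n1 at -5.59.

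Energy metabolism went in no single direction, with single subunits at opposite ends. Complexes II to IV of the respiratory chain had 19 of 27 above 0 and 8 below, with a median of 0.10 against 0.02 in WT, 1 higher and 2 lower at 1.5-fold. Sdhc, a membrane anchor of complex II, was at 3458, 3240, 3360 and 5570 on WT sham, WT TAC, then STIM1KO sham and STIM1KO TAC, with 0.73. Cox6a2, the heart and muscle subunit of cytochrome oxidase, was at 23230, 26440, 23900 and 13040, with -0.87. In both the STIM1KO TAC array was the one apart, high for Sdhc and low for Cox6a2. Complex I genes had 17 of 33 above 0 and a median of 0.06, and ATP synthase genes 8 of 16 and a median of -0.04. Ndufb4, of complex I, was at 2676, 2821, 2084 and 4280, with 1.04, and Atp5a1, the alpha subunit of ATP synthase, at 5227, 5901, 5534 and 11090, with 1.003. Atp5pb, of the stalk of the same enzyme, was at 21240, 18280, 19850 and 12180, with -0.70. Both Ndufb4 and Atp5a1 were highest on STIM1KO TAC and were at 0.99 with median centring.

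Among the enzymes that feed the chain, those of the citric acid cycle had 15 of 31 above 0 and a median of -0.02, and fatty acid genes 18 of 40 and -0.07. Mdh2, malate dehydrogenase, was at 9768, 8931, 10640 and 6158 on WT sham, WT TAC, then STIM1KO sham and STIM1KO TAC, with -0.79, and Cs, citrate synthase, differed by -0.61. Dgat2, which makes triglyceride, was at 697, 634, 777 and 440, with -0.82. These 3 were lowest on STIM1KO TAC. Glucose and glycogen genes had 13 of 30 above 0 and a median of -0.14, while 5 were higher and 0 lower at 1.5-fold. Hk2, the insulin-responsive hexokinase, was at 596, 627, 432 and 780, with 0.85, and Eno3, muscle enolase, at 7378, 6158, 6415 and 11320, with 0.82. Pfkfb1 and Pgam2, also of glycolysis, differed by 0.75 and 0.62.

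Genes of protein synthesis and disposal were near the median of all genes, with large single differences. Cytosolic ribosomal proteins had 20 of 50 above 0 and 30 below, with a median of -0.05, or -0.003 with the values as deposited. At 1.5-fold, 4 of the 50 were lower, near the 7.11% of all genes, and 0 higher, beside 7.31% of all genes. Rps23 was the lowest at 4490, 3505, 4423 and 2478 on WT sham, WT TAC, then STIM1KO sham and STIM1KO TAC, with -0.84. Mitochondrial ribosomal proteins had 29 of 71 above 0 and a median of -0.13, with no stated direction because 42 of 71 below 0 is less than 60%. Mrpl2 was at 1369, 525, 315.5 and 758, with 1.26, and Mrpl55 at 465, 331, 215 and 463, with 1.11 or, with median centring, 0.998. Both were lowest on STIM1KO sham and highest on WT sham. Translation factors had 30 of 46 above 0 and a median of 0.10 against 0.04 in WT, which was 0.01 with median centring. Eif4g2, an initiation factor, was at 452, 496, 330 and 810, with 1.30, and Eef1b2, an elongation factor, at 654, 627, 498 and 1043, with 1.065. Proteasome subunits had 19 of 35 above 0 and a median of 0.08, which was -0.02 with median centring. Ribosome assembly genes had 16 of 30 above 0 and a median of 0.01.

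Chaperones leaned lower. Of 28, 9 were above 0 and 19 below, and the median was -0.13 against 0.03 in WT. At 1.5-fold, 7 were lower and 2 higher, beside 7.11% and 7.31% of all genes. Cct5, of the chaperonin that folds actin and tubulin, was at 1253, 828, 1055 and 556 on WT sham, WT TAC, then STIM1KO sham and STIM1KO TAC, with -0.92. Hspa4, of the Hsp110 family, was at 821, 533, 625 and 349, with -0.84, and Hspa9, the mitochondrial Hsp70, at 838, 736, 887 and 513, with -0.79. For all 3 the STIM1KO TAC array was the lowest and the WT TAC array was below WT sham. Hspd1, the mitochondrial chaperonin, was at 2656, 3017, 1562 and 2714, with 0.80, and there STIM1KO sham was the low array.

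The unfolded protein and integrated stress responses, which slow translation and raise chaperones and amino acid genes when proteins misfold, had 11 of 22 genes above 0 and a median of 0.01, or -0.185 with the filter at the 75th percentile. Chac1, which degrades glutathione and is a target of the transcription factor ATF4, stood out at 38.7 (WT sham), 34.8 (WT TAC), 17.8 (STIM1KO sham) and 86.5 (STIM1KO TAC), with 2.28 or 4.86-fold. The WT arrays lay between the STIM1KO ones. Hspa5, the chaperone BiP, was at 1193, 1313, 1140 and 1847, with 0.70. Xbp1, a transcription factor of the response, differed by 0.57 and Ppp1r15a, a subunit that restores translation, by 0.52. The promoter of Chac1 is shown because the gene had the largest difference of its list. Differences in this list ran from -0.51 to 2.28. In the 250 bases before its start (GRCm38.p6, from RefSeq, chr2:119350992-119351241, plus strand), capitals mark a match to TGATGNAA on the reverse strand, a core of elements bound by ATF4, from base 193 to base 186 before the start.
Chac1: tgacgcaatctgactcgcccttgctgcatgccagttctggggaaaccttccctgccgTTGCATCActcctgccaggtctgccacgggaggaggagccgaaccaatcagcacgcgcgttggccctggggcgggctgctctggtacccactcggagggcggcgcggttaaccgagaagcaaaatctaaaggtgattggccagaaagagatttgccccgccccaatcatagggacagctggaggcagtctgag
Searched on both strands, TGATGNAA is in 3.45% of all promoter entries of this length and in 2.29% of those of genes passing the filter. Of the 72 higher genes with an entry 4 hold it (Art3, Chac1, Nmb and Pgap4) and of the 32 lower genes 0. As above, a match describes letters only.

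Antioxidant genes had 22 of 38 above 0, which is less than 60%, and a median of 0.12, and 8 were higher and 1 lower at 1.5-fold. Txnip, an inhibitor of thioredoxin, was at 1030, 1481, 736 and 1684 on WT sham, WT TAC, then STIM1KO sham and STIM1KO TAC, with 1.19 beside 0.52 in WT. Sod2, the mitochondrial superoxide dismutase, was at 6287, 6210, 3802 and 6388, with 0.75. Srxn1, which repairs peroxiredoxins, was at 59.8, 71.2, 35.4 and 64.4, with 0.86. In all 3 the STIM1KO sham array was the low one, and for Sod2 the other arrays were close together. Hmox2, the constitutive heme oxygenase, was at 669, 598, 583 and 311, with -0.91 and a low STIM1KO TAC array. Autophagy genes had 13 of 27 above 0 and a median of -0.001, or 0.105 with the filter at the 75th percentile, with Wipi1 the lowest and Atg12 and Ulk1, of autophagosome initiation and growth, at 0.74 and 0.67. Apoptosis regulators had 7 of 16 above 0 and a median of -0.17, which was 0.17 without the filter, 0.14 with it set on the STIM1KO arrays and -0.002 with those arrays normalized alone, with Casp9, the initiator caspase, at -0.72 and Bcl2l1, which encodes the survival protein Bcl-xL, at 0.44.

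Matrix genes went both ways. Collagen chains had 11 of 18 above 0 and a median of 0.01, which was -0.03 with median centring and 0.18 with the filter at the 75th percentile, against -0.13 in WT. Beside Col1a2, Col5a1, a chain of fibrillar collagen V, was at 116, 102, 84.5 and 139 on WT sham, WT TAC, then STIM1KO sham and STIM1KO TAC, with 0.72. Col3a1 was at 748, 641, 610 and 593, with -0.04, and Col1a1, the partner chain of Col1a2, lay below the filter level at 35.5, 31.1, 28.4 and 19.7, with -0.53. The 2 chains of collagen I thus went opposite ways on these probes. Other matrix genes had 20 of 37 above 0 and a median of 0.10, or -0.02 with the filter at the 75th percentile, with 5 higher and 4 lower at 1.5-fold. Aspn, the proteoglycan asporin, was at 87.97, 102, 47.4 and 119, with 1.33 and a low STIM1KO sham array. Dcn, the proteoglycan decorin, was at 3279, 2879, 2406 and 1433, with -0.75, and P4ha2, which hydroxylates collagen, at 92.7, 89.8, 102 and 52.2, with -0.97. The last 2 were lowest on STIM1KO TAC. Fibroblast markers, with a median of -0.05, are given above, and their part in these values was not tested.

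Matrix metalloproteinases and their inhibitors leaned higher, with 9 of 15 above 0, 6 below and a median of 0.15 against -0.15 in WT, or 0.01 with the filter at the 75th percentile. Timp4, the inhibitor enriched in the heart, was at 237, 213, 136 and 322 on WT sham, WT TAC, then STIM1KO sham and STIM1KO TAC, with 1.24. Adam10, a sheddase, was at 94.7, 106, 91.0 and 173.5, with 0.93. Timp3, a matrix-bound inhibitor, was at 308, 257, 218 and 131, with -0.73. The members at the ends of this group thus include inhibitors of the proteases on both sides.

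Growth factor signals were split within their families. TGF-beta, BMP and Id genes had 7 of 17 above 0 and a median of -0.11, or -0.42 with the filter at the 75th percentile, with 4 higher and 5 lower at 1.5-fold. Id2 and Id3, inhibitors of helix-loop-helix factors and targets of BMP signals, were low on STIM1KO TAC, Id2 at 126, 137.5, 145 and 71.7 on WT sham, WT TAC, then STIM1KO sham and STIM1KO TAC and Id3 at 556, 565, 375 and 191. Their differences were -1.02 and -0.97. Id1, of the same family, was at 345.5, 577, 216.5 and 436, with 1.01 or, with median centring, 0.90, and STIM1KO sham was its low array. Bmpr1a, a BMP receptor, differed by 0.81 and Eng, the endothelial co-receptor endoglin, by -0.79. VEGF, angiopoietin and hypoxia genes had 9 of 20 above 0 and a median of -0.06, or 0.25 with the filter at the 75th percentile. Pgf, a further ligand of Flt1, was at 60.7, 74.1, 30.9 and 66.1, with 1.10, so that it shared with Vegfb the low STIM1KO sham array.

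The insulin-like growth factor axis leaned lower, with 6 of 19 above 0, 13 below and a median of -0.17 against -0.02 in WT, or -0.04 with the filter at the 75th percentile. H19, an imprinted RNA next to Igf2 that is known from fetal growth, was at 44.7, 38.5, 50.2 and 18.8 on WT sham, WT TAC, then STIM1KO sham and STIM1KO TAC, with -1.42. Cdkn1c, an imprinted inhibitor of the cell cycle, was at 177, 160, 173 and 89.0, with -0.96, and Igfbp5, a binding protein, at 61.0, 57.6, 52.3 and 34.45, with -0.60. In these 3 the STIM1KO TAC array was low and the other 3 lay together. Tsc2, a brake on mTOR, was the highest of the list at 0.56.

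Immune, clock and cell cycle genes were mixed. Interferon and antigen presentation genes had 16 of 27 above 0 and a median of 0.06, which was -0.01 with median centring. Cytokine, chemokine and adhesion genes had 11 of 24 above 0 and a median of -0.07, or 0.13 with the filter at the 75th percentile. Rela, a subunit of NF-kappaB, was at 65.8, 71.1, 35.2 and 64.9 on WT sham, WT TAC, then STIM1KO sham and STIM1KO TAC, with 0.88 and a low STIM1KO sham array, while Nfkb1, its partner, differed by -0.73. Immediate early genes had 8 of 19 above 0 and a median of -0.10, or -0.21 with the filter at the 75th percentile, with Gadd45b, a stress gene, at -0.80 and -0.75 in WT. Circadian clock genes had 7 of 12 above 0 and a median of 0.15, or 0.04 without the filter, against 0.14 in WT. Cell cycle genes had 7 of 15 above 0 and a median of -0.06, or 0.10 without the filter, with H2az1 and Cdk2 (-0.85) lowest and Stmn1 and Mcm4 (0.82 and 0.81) highest.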

How the data were processed

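The left ventricle of 1 STIM1KO TAC and 1 STIM1KO sham sample was measured on 1-colour arrays, with 1 WT array each for comparison. Per the labels' protocols, RNA was amplified to amino allyl aRNA and coupled to Cy5. The values used are intensities deposited by the authors in the series matrix, with a median of 20.0 on each array. The sources used here do not give the scanner, the background correction or the rule for empty cells.

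Probes without a value on all 4 arrays were left out, so 19607 of 23473 remained. The values were taken to log2 and then quantile normalized over the 4 arrays. The platform annotation named 16631 probes with 1 symbol, and 6842 had none that could be used. Of the symbols, 3947 were updated to RefSeq names. The brightest probe stood for a gene. Genes at a mean log2 at or above the median, 4.87 (intensity 29.3), were kept, 7020 of 14039. A list was given a direction only where 60% or more of its members, at least 4, and its median under all 3 scalings lay on 1 side. With 1 array a group the array number is the limit on precision, and probe brightness is the only sign of it.

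The members and lists were chosen with earlier results of these data known. Named genes are Stim1 and store-operated genes, the 25 largest differences each way at 2-fold without clone names, the 4 largest in each list, and 10 markers of hypertrophy and matrix. Genes given to check cell types come from the marker lists. The alternatives were median centring, the deposited values, the STIM1KO arrays alone, an offset, other filters, other fold thresholds and the mean over probes. The script was tested on simulated data. Python 3.11.15, numpy 2.4.6, pandas 2.3.3, scipy 1.17.1 and matplotlib 3.10.9 were used.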

Additional observations from a re-analysis of the deposited data

Results flagged for a closer look

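For 6 named genes the STIM1KO and WT arrays differed by 1.5-fold or more in opposite directions between TAC and sham. Differences between the genotypes were not tested, with 1 array in each group. Arrdc2, of the arrestin-domain family, differed by 1.39 in STIM1KO and -0.68 in WT, with intensities of 78.1 (WT sham), 48.85 (WT TAC), 38 (STIM1KO sham) and 99.2 (STIM1KO TAC). Mrpl2, of the mitochondrial ribosome, differed by 1.26 and -1.38. Icam2, an adhesion molecule of endothelium and leucocytes, differed by 0.98 and -0.87, at 218, 120, 118 and 232 in the same order of arrays. Trim25, a ubiquitin ligase of antiviral defence, differed by 0.84 and -1.25. Ciart, a repressor of the circadian clock, differed by 0.68 and -0.60. In these 5 genes the WT sham and STIM1KO TAC arrays were the higher within their genotype. Myh7, the slow myosin heavy chain, was the reverse, with -0.59 in STIM1KO and 0.59 in WT.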

How the results depend on the processing

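The counts at 2-fold, 88 higher and 42 lower, moved by more than 1.5 times only with another threshold or filter, and the lower count also with an offset. They were 513 and 499 at 1.5-fold, 13 and 1 at 3-fold, 488 and 328 without the filter, and 38 and 14 with the filter at the 75th percentile. With an offset of the 25th percentile they were 71 and 27. The other counts were 70 and 56 with median centring, 99 and 33 as deposited, 106 and 37 with the STIM1KO arrays normalized alone, 96 and 35 with a filter on those arrays only, and 90 and 42 with the mean over probes. Median centring took 18 of the 88 under 2-fold. Cacna2d1 and Id2 were at -0.99 as deposited, and Pgf and Slc7a5, an amino acid transporter, at 0.98 and 0.99 with the offset.

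Of 373 medians of 47 lists under these alternatives, 330 were within 0.1 of the reported one, and 20 lists changed sign under at least 1 of them, among them none given a direction in the text. Adipocyte, neural and store-operated lists had too few members at the 75th percentile. Of 1896 values of the 237 named genes, 1796 were within 0.1, and Nr1d2, a clock gene, was the only change of sign, from 0.29 to -0.09 with the mean over its probes. No paired analysis was possible because each group had 1 array, and for the same reason no replicate could be left out. Dim probes limit what can be read: their differences spread most.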

Other observations

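Probes without a usable symbol were set beside the named ones. Of 2117 such probes at the filter level, 22 were higher and 13 lower by 2-fold or more on STIM1KO TAC, with a median of -0.06 and an SD of 0.41. Of the 7020 named genes, 88 (1.25%) were higher and 42 (0.598%) lower, with a median of -0.004 and an SD of 0.42. A value on the STIM1KO TAC array beside an empty cell on STIM1KO sham was found for 1335 probes, and the reverse for 668. Over the 4 arrays, the highest value of these probes had a median of 2.33 and 2.42, so they were dim.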
